A study of Mus musculus with 4 samples.

Results

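The BCL2 family decides whether a cell under stress permeabilises its outer mitochondrial membrane, and 10 of its genes were followed here in normal mouse prostate and in prostate tumours. The 10 were chosen by name: the survival genes Bcl2, Bcl2l1 and Mcl1, the executioners Bax and Bak1, and the BH3-only genes Bcl2l11, Bad, Bid, Bbc3 and Pmaip1. All 10 were found, each as a single row, among 24319 gene names. RNA-seq libraries came from 2 normal prostates of wild-type males aged 22 weeks and from 2 late-stage tumours of TRAMP males aged 24 weeks by their labels, with 24 to 28 weeks in the protocol. All mice were C57BL/6 by FVB F1 males, and the TRAMP mice were heterozygous for SV40 T antigen driven by the rat probasin promoter, which is active in prostate epithelium. The normal prostates carried no transgene, and the labels do not state in words that the tumours are from different mice, so each p-value measures the spread between these samples.

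Survival proteins hold the executioners in check by binding them and the BH3-only proteins. BH3-only proteins are sensors that are induced or activated by stress, and they block survival proteins or activate BAX and BAK directly. Once BAX or BAK forms pores, cytochrome c leaves the mitochondrion, APAF1 assembles the apoptosome and caspases are activated. In prostate, BCL2 protein is known from basal rather than luminal cells, and SV40 large T antigen binds p53, whose target genes include Bax, Bbc3 and Pmaip1. Most of these proteins are also controlled by phosphorylation, cleavage or degradation, which RNA does not show. Bcl2l1 and Mcl1 each make a long survival isoform and a short death-promoting one, and the gene values used here sum them.

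Values are FPKM (fragments relative to transcript length and to all mapped fragments) divided by a factor that sets the median gene equal between libraries. Fold changes are differences of log2(scaled FPKM + 1), tumour minus normal, from limma over all 13162 genes tested, with 2 libraries in each group. The variance of each gene was drawn toward a trend over all genes, with 2.85 prior against 2 residual degrees of freedom. The deposited tables hold no counts, and the width of each Cufflinks interval implied 985509 and 1578847 fragments for normal 1 and normal 2 and 1431957 and 1141314 for tumour 1 and tumour 2. Tumour 1 stood apart in its makeup. Of 12 luminal epithelium markers, 9 were below both normals in each tumour, with a summed level of 2715 and 3188 in normal prostate, 663 in tumour 1 and 2100 in tumour 2. Cdh1 and Spdef were listed at 0 in tumour 1. Hoxb13 lay at 295 in tumour 1 and 160.3 in tumour 2, and Foxa1 at 39.6 and 38.2. Cd24a was above both normals, at 305 and 686. Krt8 lay at 0.258 in tumour 1 and 438 in tumour 2, against 178 and 191 in normal prostate. Of 12 neuroendocrine markers 11 were higher in both tumours, and their summed level was 1.47 and 1.20 in normal prostate against 847 and 1174 in the tumours. Macrophage markers summed to 22.4 and 19.7 against 193 and 602, with 6 of 8 higher in both tumours. Adgre1 and Csf1r lay below both normals in tumour 1, at 1.36 and 0.787. Smooth muscle markers summed to 662 and 606 against 23.4 and 124, with 7 of 8 lower in both tumours. Smtn lay above both normals in tumour 1, at 19.3. In such bulk tissue fewer cells of a type and less RNA per cell cannot be told apart.

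The tumours did not differ from normal prostate in any tested member past the threshold. Of the 9 members tested, 0 were called at an adjusted p under 0.05, while 18.1% of all genes tested were called, 9.85% higher and 8.27% lower. At an unadjusted p under 0.05 it was 2 of 9, Bak1 and Bcl2l1, against 39.8% of all genes. By voom on the implied fragments it was also 0 of 9, with 3 at an unadjusted p under 0.05. Over all 13162 genes tested voom called 1047 higher and 988 lower, with 5084 at an unadjusted p under 0.05. Pmaip1 reached an FPKM of 1 in a single library and was not tested. The median log2 fold change was -0.05 over the 9 members and 0.07 over all genes tested. In 8 of the 10 members the groups did not overlap, 3 higher and 5 lower in the tumours, and over all genes tested the groups did not overlap in 71.1%, 37.7% higher and 33.3% lower. The plot of levels by library shows Bax as the member with the highest value in each library, although its Cufflinks interval overlapped that of Bcl2l1 in normal 2.

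**Figure D1:**
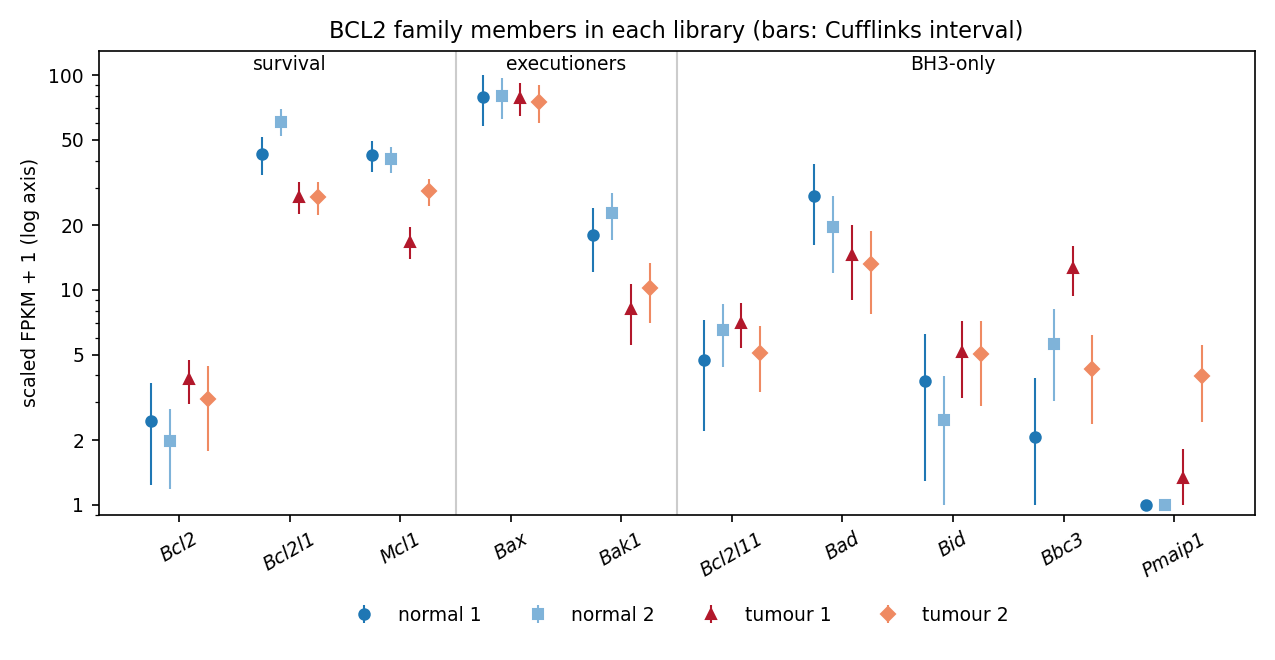
Scaled FPKM + 1 on a log axis for each of the 10 members, by role, in normal 1, normal 2, tumour 1 and tumour 2. Bars are the deposited Cufflinks intervals, divided by the same factors. Bax lies between 73.9 and 78.9 scaled FPKM in all 4 libraries, Bcl2l1, Mcl1, Bak1 and Bad are lower in both tumours, and Pmaip1 is listed at 0 in both normal prostates.

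Members separated into abundant and scarce genes in both normal prostates and in tumour 2, but not in tumour 1. Per transcript length, Bax held 36.5% and 34.1% of the summed FPKM of the 10 members in normal prostate and 46.9% and 44.6% in the tumours. Bcl2l1, Mcl1, Bad and Bak1 came next in both normal prostates, and Bcl2l11, Bid, Bcl2, Bbc3 and Pmaip1 were the lowest 5. In tumour 1 Bbc3 stood above Bak1 in that order, and the Cufflinks intervals of Bak1 and Bcl2l11 overlapped there. Of the 9 steps between neighbours in the order, the Cufflinks intervals were apart in 2 to 4 per library, so the order within the abundant and within the scarce members is mostly not resolved. Mcl1 and Bcl2l1 overlapped in normal 1 and tumour 2 and were apart in normal 2 and tumour 1, with Bcl2l1 above in both.

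Among the survival genes, Bcl2l1 and Mcl1 were lower in both tumours and Bcl2 was higher. Bcl2l1 encodes BCL-XL (GRCm38 chromosome 2, 152758732 to 152831728, minus strand) and lay at 42.0 and 59.8 in normal tissue versus 26.1 and 26.1 in tumour tissue. Both tumours lay below both normal prostates, and the tumours were almost equal. The log2 fold change was -0.91 (SE 0.31, adjusted p = 0.0955). Mcl1 (chromosome 3, 95658721 to 95663178, plus strand), whose protein is short-lived, lay at 41.4 and 39.5 in normal tissue, 15.7 in tumour 1 and 27.8 in tumour 2. The groups did not overlap, and the log2 fold change was -0.92 (SE 0.37, adjusted p = 0.137). Bcl2 (chromosome 1, 106538178 to 106714290, minus strand), the founding survival gene, was at 1.46 and 0.990 in normal tissue versus 2.83 and 2.1 in tumour tissue. About 5.71 and 6.05 implied fragments stood behind these values in normal prostate and 39.5 and 10.05 in the tumours, and the log2 fold change of 0.64 (SE 0.39, adjusted p = 0.277) did not pass.

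Markers of basal and lymphoid cells, both known for BCL2, were read beside these values. Of 8 basal epithelium markers 5 were lower in both tumours, with a summed level of 93.5 and 91.9 against 17.0 and 41.1, and Krt5, Krt14 and Trp63 were listed at 0 in tumour 1. Dst was higher in both tumours, at 9.64 and 10.02 against 7.99 and 9.44. B and plasma cell markers summed to 1.32 and 0 in normal prostate against 0.652 and 6.62 in the tumours. Of these 8 markers 1 was higher in both tumours, Jchain, at 0 and 0 against 0.652 and 6.14. Ms4a1, Cd79a and Cd79b were listed at 0 in all 4 libraries. T and NK cell markers summed to 2.47 and 3.97 in normal prostate against 0.183 and 2.12 in the tumours. Neuroendocrine markers were high in both tumours, and the part of basal, lymphoid and neuroendocrine cells in the Bcl2 values was not tested.

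The executioners parted. Bax (chromosome 7, 45461695 to 45466898, minus strand) lay at 78.1 and 78.9 in normal tissue versus 77.4 and 73.9 in tumour tissue, which gave a log2 difference of -0.05 (SE 0.24, adjusted p = 0.883). All 4 values lay within the Cufflinks interval of each library, and Bax shares 192 exon bases (12.2%) with Gm45808 on the same strand in GENCODE M21. Bak1 (chromosome 17, 27019812 to 27028626, minus strand) lay at 17.1 and 21.7 in normal tissue versus 7.11 and 9.18 in tumour tissue. Both tumours were below both normal prostates, and the log2 difference was -1.16 (SE 0.35, adjusted p = 0.0801), the largest in size among the 9 members with these settings. Bbc3 was larger in size than Bak1 with FPKM as deposited (1.84 against -0.28), with the FPKM sum (1.62 against -0.55), with a pseudocount of 0.1 (1.42 against -1.24) and by voom (1.54 against -1.28). Within its deposited locus Bak1 shares 396 exon bases, 19.6% of its exon bases there in GENCODE M21, with Ggnbp1 on the opposite strand. Ggnbp1 lay at 85.5 and 59.6 in normal tissue versus 0.462 and 3.59 in tumour tissue, and its part in the Bak1 values was not tested. The 3 genes whose values over the 4 libraries lay closest to those of Bak1 (Euclidean distance of centred log2 values) were Ide (0.05), Cmas (0.08) and Slc19a2 (0.08).

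Bax and Bak1 also differ in the letters before their start sites, which are printed as the pair whose levels parted, chosen after their values were seen. The sequences are the 250 bases before the start in RefSeq (GRCm38.p6, both minus strand), chr7:45466899-45467148 for Bax and chr17:27028628-27028877 for Bak1, and capitals mark a p53 half-site, a decamer that p53 binds in pairs.
Bax: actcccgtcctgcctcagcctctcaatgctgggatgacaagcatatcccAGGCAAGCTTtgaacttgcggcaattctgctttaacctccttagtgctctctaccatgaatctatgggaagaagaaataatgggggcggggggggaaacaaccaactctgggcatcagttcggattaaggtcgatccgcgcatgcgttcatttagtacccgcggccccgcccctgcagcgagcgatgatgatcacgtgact
Bak1: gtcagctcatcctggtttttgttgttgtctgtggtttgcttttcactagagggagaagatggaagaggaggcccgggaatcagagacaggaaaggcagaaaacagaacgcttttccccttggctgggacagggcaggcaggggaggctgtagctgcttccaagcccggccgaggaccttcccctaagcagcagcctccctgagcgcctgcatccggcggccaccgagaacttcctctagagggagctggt
The half-site of Bax begins 201 bases before the start. Windows were matched for 9 of the 10 members, 15 windows in all, and 1 of the 15 held a p53 half-site on either strand, against 7.13% of 32851 windows of the same length. The E2F words TTTCCCGC, TTTCGCGC, TTTGCCGC and TTTGGCGC, read on both strands, were found in 1 of the 15, a window of Bcl2l1, against 1.86% of all windows. A match is a run of letters and shows no binding, and a window without one shows only that these letters are not in it.

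BH3-only genes differed in direction among themselves. Of the 4 tested 3 had a positive fold change and 1 a negative one, and 0 passed. Bad (chromosome 19, 6941861 to 6951905, plus strand), a survival factor sensor held inactive by phosphorylation, lay at 26.4 and 18.7 in normal tissue versus 13.5 and 12.3 in tumour tissue. Both tumours were lower, and the log2 difference was -0.74 (SE 0.34, adjusted p = 0.17). Bad shares 524 exon bases, 20.5% of its exons, with the opposite-strand gene Gpr137, which lay at 40.3 and 28.1 in normal tissue versus 1.07 and 8.77 in tumour tissue. The part of Gpr137 in the Bad values was not tested.

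Bid (chromosome 6, 120893119 to 120916820, minus strand), which links death receptors to mitochondria once caspase 8 cleaves it, lay at 2.76 and 1.49 in normal tissue versus 4.16 and 4.03 in tumour tissue. Both tumours were higher, and the log2 difference was 0.74 (SE 0.43, adjusted p = 0.260), and the values rested on 5.0 and 4.0 implied fragments in normal prostate and 17.0 and 14.0 in the tumours. Without normal 2 the difference was 0.43, and without normal 1 it was 1.02. Bcl2l11 encodes BIM (chromosome 2, 128126038 to 128162547, plus strand) and lay at 3.70 and 5.48 in normal tissue versus 6.02 and 4.10 in tumour tissue. Its groups overlapped, and the log2 fold change was 0.12 (SE 0.44, adjusted p = 0.862).

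Bbc3 and Pmaip1, both induced by p53, differed between tumour 1 and tumour 2 in opposite directions. Bbc3 encodes PUMA (chromosome 7, 16309583 to 16318334, plus strand) and lay at 1.08 and 4.62 in normal tissue, 11.6 in tumour 1 and 3.29 in tumour 2. Tumour 1 was 3.54-fold above tumour 2, which lay within the range of the normal prostates, and the log2 fold change over both tumours was 1.11 (SE 0.78, adjusted p = 0.338). Pmaip1 encodes NOXA, which neutralises MCL1 (chromosome 18, 66458604 to 66465558, plus strand). Pmaip1 was listed at 0 in both normals, reached 0.337 in tumour 1 on 1.99 implied fragments and 2.97 in tumour 2 on 14.7. Mcl1, Bbc3 and Pmaip1 were the 3 members whose Cufflinks intervals were apart between the tumours, with Bbc3 above and Mcl1 and Pmaip1 below in tumour 1. That is 3 of 10, while 43.8% of all genes tested had intervals apart in the tumour pair. In the normal pair it was 1 of 10, Bcl2l1, against 6.07% of all genes.

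Calls depended on the second tumour. Without tumour 2, 3 members were lower (Bak1 at -1.29, Mcl1 at -1.29, Bcl2l1 at -0.89) and Bbc3 was higher at 1.86, with adjusted p-values of 0.00724, 0.00273, 0.0270 and 0.0168. In that fit 50.5% of all genes were called, 30.8% of all genes as lower. Without tumour 1, Bcl2l1 alone was called (-0.84, adjusted p = 0.0479), where 31.5% of all genes were, 20% as lower. A lone tumour is assumed to vary like the normal prostates in these fits. Over all settings the adjusted p ranged from 0.00724 to 0.558 for Bak1, from 0.00273 to 0.993 for Mcl1, from 0.0270 to 0.995 for Bcl2l1 and from 0.0168 to 0.865 for Bbc3. Without normal 1 or without normal 2, limma called 0 of all genes, with 2434 and 2354 genes at an unadjusted p under 0.05, and every call named in the text was lost.

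Of the abundant members, Bax, Bcl2l1 and Bad changed sign with the scaling between libraries, while Mcl1 and Bak1 stayed negative in every setting. The scaling factors shifted the tumours against the normal prostates by 0.94 on the log2 scale. All 7 prostate secretion markers were lower in both tumours. Their scaled FPKM summed to 485564 and 552491 in normal prostate against 3.56 and 3726 in the tumours, and their part in the shift was not tested. With FPKM as deposited the median gene was higher by 0.86. Bax was then higher at 0.88 (SE 0.24, adjusted p = 0.0531), Bcl2l1 and Mcl1 lay at 0.0028 and -0.0057, Bad at 0.14 and Bak1 at -0.28. Of the 9 members 0 passed with FPKM as deposited, where 31.2% of all genes did. With FPKM as deposited 6 members were higher in both tumours, 0 were lower and 4 overlapped, while 59.4% of all genes were higher and 14.5% lower. With quantile normalization Bax lay at 0.43, above Bid at 0.35 and Bcl2 at 0.16. The adjusted p of Bax ranged from 0.0531 to 0.992 over all settings.

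**Figure D2:**
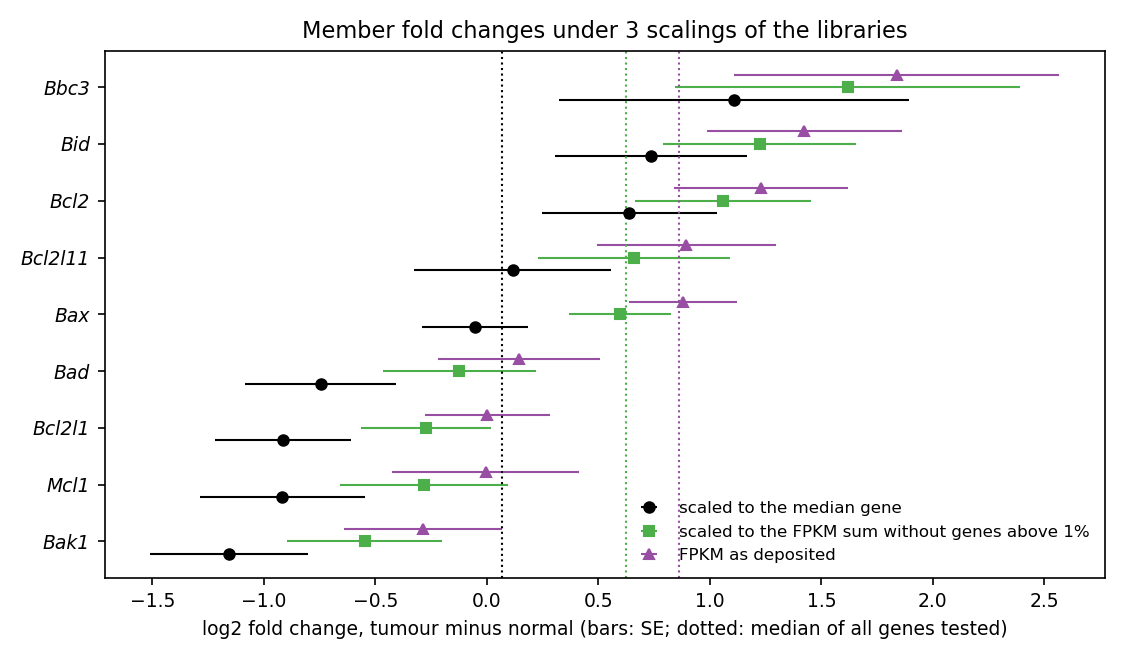
Log2 fold change, tumour minus normal, with its SE, for the 9 members tested under 3 scalings of the libraries. Dotted lines mark the median of all genes tested under each scaling, at 0.07, 0.62 and 0.86, and Bax lies close to that median under each while Bad, Bcl2l1, Mcl1 and Bak1 lie below it.

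Ratios between members of 1 library do not depend on that scaling, except through the added 1. Summed FPKM of the 3 survival members over that of the 7 death members was 0.657 and 0.766 in normal prostate and 0.372 and 0.510 in the tumours. The balance was lower in both tumours, by 0.70 on the log2 scale, with SDs of 0.16 and 0.32 within the groups. Bax made up much of the death side. The ratios are given as a description with no test, and an exact two-sided permutation test of 2 libraries against 2 cannot go below 0.333. The Cufflinks intervals, set against each other at their extremes, overlapped between the groups.

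Single pairs showed where the balance differed. Bcl2l1 over Bax was 0.537 and 0.758 in normal prostate and 0.338 and 0.353 in the tumours. Mcl1 over Bax was 0.530 and 0.501 against 0.203 and 0.376. Both survival genes were thus lower relative to Bax in both tumours, as were 35.1% of all genes tested. Relative to Bak1 the survival genes were not lower: Bcl2l1 over Bak1 was 2.46 and 2.75 against 3.67 and 2.84, and Bcl2 over Bak1 was 0.0857 and 0.0456 against 0.398 and 0.229. Mcl1 over Bak1 overlapped, at 2.42 and 1.82 against 2.21 and 3.03. Bak1 itself had the most negative log2 fold change of the members tested, at -1.16. For ratios to Bak1 no share over all genes tested was computed, so they show nothing particular to the survival genes. Bcl2 over Bax was higher, at 0.0187 and 0.0126 against 0.0366 and 0.0284, where 35% of all genes were higher relative to Bax. Bax over Bak1 was 4.58 and 3.63 in normal prostate and 10.9 and 8.05 in the tumours. On the scale of deposited FPKM + 1 it was 2.24-fold higher in the tumours, beside the Ggnbp1 values given above. The ratio of Mcl1 to Bcl2l1 overlapped between the groups, at 0.986 and 0.661 in normal prostate and 0.602 and 1.07 in the tumours.

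**Figure D3:**
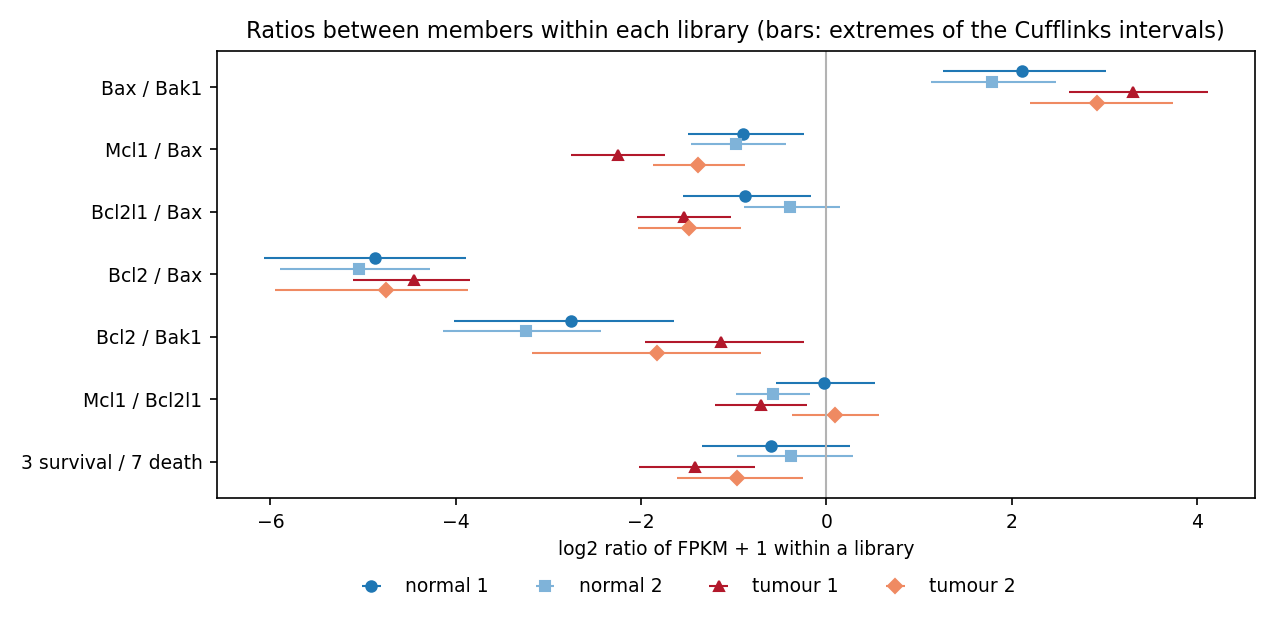
Log2 ratio of FPKM + 1, with FPKM as deposited, between members within each of the 4 libraries. Bars join the extremes that the Cufflinks intervals allow. Bax over Bak1 lies at 2.11 and 1.79 in the normal prostates and at 3.31 and 2.92 in the tumours, and the ratio of the 3 survival to the 7 death members is lower in both tumours.

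Other genes of the family were read from a wider list. Of 16 listed BCL2 family and BNIP genes 12 were tested, 1 rose, 1 fell and 10 did not pass, beside 18.1% called over all genes tested, with a median log2 fold change of -0.85. Bcl2l2, which encodes the survival protein BCL-W, fell from 36.9 and 37.4 to 7.23 and 11.9. The log2 fold change was -1.89 (SE 0.36, adjusted p = 0.0346), which did not pass on deposited FPKM (-0.999), with scaling to the FPKM sum (-1.27) and without the filter on low values. Bnip3l, a mitophagy receptor that hypoxia induces, rose from 28.8 and 28.9 to 62.6 and 90.7 (1.35, SE 0.30, adjusted p = 0.0446), which did not pass with no trend or with no low-value filter. Bok, an executioner-like gene, was at 4.54 and 3.59 in normal tissue, 102 in tumour 1 and 15.6 in tumour 2 (3.04, SE 0.91, adjusted p = 0.0761). The BH3-only gene Bik lay at 20.1 and 19.6 in normal prostate, was listed at 0 in tumour 1 and lay at 7.87 in tumour 2 (adjusted p = 0.124). Hrk was listed at 0 in all 4 libraries. Bok and Bik were among the largest fold changes of the list that did not pass, and they were singled out after their values were seen.

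Downstream of the mitochondrion, of 19 caspases, apoptosome genes and inhibitors of apoptosis 1 rose, 2 fell and 16 did not pass, beside 18.1% called over all genes tested, with a median of -0.23. Birc5, which encodes the mitotic protein survivin, was listed at 0 in normal 1 and reached 0.0981 in normal 2. It lay at 205 in tumour 1 and 110 in tumour 2 (adjusted p = 0.0187). Birc5 passed the filter on low values only through the tumours. It was therefore not tested without tumour 1, without tumour 2 or with the filter in all 4 libraries. All 8 proliferation markers, Birc5 not among them, were also higher in both tumours, with summed levels of 40.0 and 39.1 against 1300 and 621. Birc6, a giant ubiquitin ligase that restrains caspases, fell from 27.7 and 33.1 to 10.4 and 7.75 (-1.65, SE 0.34, adjusted p = 0.0387). Dffb, the caspase-activated DNase, fell from 7.57 and 7.34 to 1.79 and 1.58 (-1.66, SE 0.39, adjusted p = 0.0496). With FPKM as deposited both missed the threshold, at -0.76 and -0.94.

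Genes of the apoptosome did not pass under the scaling used. Apaf1 was at 1.78 and 1.30 against 5.17 and 2.37 (adjusted p = 0.245), and Cycs, cytochrome c, at 24.1 and 25.6 against 41.1 and 37.8 (adjusted p = 0.147). The initiator Casp9 was at 8.83 and 6.65 against 7.38 and 11.2 (adjusted p = 0.715). Xiap, an inhibitor of caspases, was at 4.68 and 4.53 against 16.6 and 7.59 (adjusted p = 0.156). Apaf1, Cycs and Xiap were above both normals in each tumour, as were 37.7% of all genes tested, and Casp9 overlapped. Cycs passed with FPKM as deposited (1.56, adjusted p = 0.0235) and with the FPKM sum (1.28, adjusted p = 0.0363). Xiap passed with FPKM as deposited (1.95, adjusted p = 0.0400), and its log2 fold change without tumour 2 was 1.65. Of the 13162 genes tested 3681 were called higher with FPKM as deposited and 2537 with the FPKM sum.

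Upstream, 3 of 22 regulators tested rose, 2 fell and 17 did not pass, again beside 18.1% over all genes tested, with a median of 0.37. Trp53, which encodes p53, rose from 14.2 and 9.12 to 42.5 and 33.3 (1.64, SE 0.36, adjusted p = 0.0439), which did not pass by voom, with no trend or with no low-value filter. E2f1, a transcription factor held by RB, rose from 4.11 and 6.07 to 43.0 and 21.3 (2.38, SE 0.47, adjusted p = 0.0366), which did not pass by voom or with no low-value filter. Jun, a subunit of AP-1, rose from 3.74 and 6.02 to 39.7 and 27.0 (2.55, SE 0.41, adjusted p = 0.0267). Tmbim6, which encodes BAX inhibitor 1 of the endoplasmic reticulum, fell from 323 and 380 to 60.8 and 124 (-1.996, SE 0.40, adjusted p = 0.0379). Ppp3ca, a catalytic subunit of calcineurin, which dephosphorylates BAD, fell by 2.05 (SE 0.40, adjusted p = 0.0357). Mdm2, the p53 ligase, named here after its values were seen, was at 17.9 and 15.4 against 18.6 and 16.9. In the death receptor pathway, 9 of 12 genes were tested, 1 fell, 0 rose and 8 did not pass, beside the same 18.1%, and the 1 was Tradd, an adaptor of TNF receptor 1 (-2.04, SE 0.45, adjusted p = 0.0441). The calls of the 6 lower genes (Bcl2l2, Birc6, Dffb, Tmbim6, Ppp3ca and Tradd) were lost both with FPKM as deposited and with scaling to the FPKM sum. With no low-value filter every call of these lists except that of Birc5 was lost. Dffb and Tradd also did not pass with a pseudocount of 0.1 or by voom, Dffb and Tmbim6 with quantile normalization, and Tmbim6 with no trend.

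**Figure D4:**
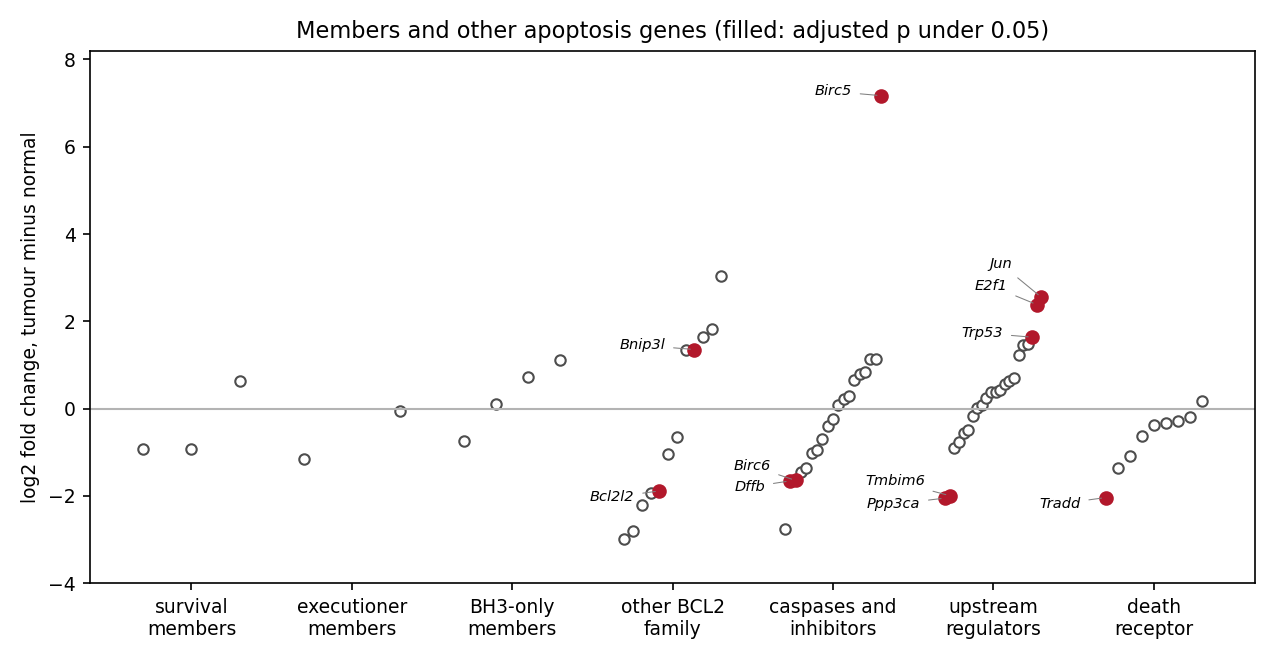
Log2 fold change, tumour minus normal, of every tested member and of the tested genes of 4 other apoptosis lists. Filled and named points passed the threshold, 5 higher and 6 lower, and none of the 9 members is among them.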

How the data were processed

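RNA from 2 normal prostates and 2 tumours was sequenced, and each library was deposited as 1 table of FPKM per gene with a Cufflinks interval. Per the submitters' processing notes the tools were Trim Galore, TopHat2 2.0.8, Cufflinks 2.1.1 and Cuffdiff 2.1.1 on GRCm38 (mm10). Not given in the sources used here: their settings, the annotation, and whether strand was used. The FPKM values deposited by the authors were summed by gene name, leaving out 27 rows whose name is a date, and divided by median-of-ratios factors over 11469 genes above 0 in all 4 libraries. Genes reaching FPKM 1 in 2 or more of the 4 libraries were tested with limma 3.58.1 (R 4.3.3) on log2(scaled FPKM + 1) with an intensity trend and Benjamini-Hochberg adjustment over 13162 genes, at a threshold of 0.05, with 2 residual degrees of freedom. The script was tested on simulated data. Fragments per gene were estimated from the interval widths, and 71.1% to 72.5% of low estimates (genes with 1 start group) were whole within 0.1, where chance gives 20%. Alternatives were other scalings, pseudocount, filter, trend, voom on the implied fragments, and each library left out. Table starts count from 0, and 1 was added. All 10 members were named whatever their result, with every gene of the other apoptosis lists past the threshold, the 3 nearest genes of the member with the largest fold change, and Casp9, Apaf1, Cycs, Xiap, Bcl2l2, Trp53 and E2f1. Some genes of the lists are not reported here. Members and lists were chosen with earlier results of these data known. The rule for promoters, members past the threshold, gave none.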

Additional observations from a re-analysis of the deposited data

How the results depend on the processing

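No paired analysis was possible, because the normal prostates came from wild-type mice and the tumours from TRAMP mice. Against 1296 genes higher and 1088 lower, FPKM as deposited gave 3681 and 427, scaling to the FPKM sum without genes above 1% gave 2537 and 554, no filter on low values gave 245 and 249, and a filter in all 4 libraries gave 555 higher. Leaving out 1 library gave 0 to 2170 higher and 0 to 3405 lower, with 0 to 1 members higher and 0 to 3 lower. Of the other apoptosis lists 5 genes were higher, against 20 as deposited, 13 with the FPKM sum, 1 with no filter, 3 with no intensity trend and 0 to 13 without 1 library. There 6 were lower, against 0 as deposited, 0 with the FPKM sum, 0 with no filter and 0 to 20 without 1 library. The sign turned as deposited for Bcl2l1 (0.0028) and Bad (0.14), and for Bax as deposited (0.88), with the FPKM sum (0.60) and with quantile normalization (0.43). It turned for Bcl2l11 with quantile normalization (-0.19), and the cause was not tested. Without 1 library the log2 fold change ranged from -1.22 to -0.70 for Bcl2l1, from -1.29 to -0.45 for Mcl1, from -1.38 to -0.92 for Bak1, from 0.34 to 1.87 for Bbc3, from 0.43 to 1.02 for Bid and from -0.17 to 0.35 for Bcl2l11. For Casp9 it ranged from -0.034 to 0.55 and turned without tumour 2. The log2 ratio of Mcl1 to Bcl2l1 turned from -0.0085 to 0.0105 at the interval bounds, to 0.27 without normal 1 and to 0.39 without tumour 1, and ranged from -0.41 to 0.39 without 1 library. With the median gene of each side in place of the sum, the survival to death ratio moved from -0.70 to -1.05. Bcl2, Bcl2l11, Bad, Bid, Bbc3 and Pmaip1 rest on under 20 implied fragments in at least 1 library, which limits their precision.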
